A study of Homo sapiens with 4 samples.

Results

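N6-methyladenosine (m6A) peaks were examined in the transcripts of 9 genes of transforming growth factor beta (TGF-beta) signalling and of epithelial-mesenchymal transition (EMT). They were the ligand gene TGFB2, the receptor genes TGFBR1 and TGFBR2, the signal transducer SMAD3 and its antagonist SMAD7, the co-repressors SKI and SKIL, and the transcription factors SNAI2 and ZEB1. A peak was counted for a gene when its summit lay inside the gene's span, given in hg19 to the nearest 1 kb. This took 68 of 63093 peaks of the control list and 49 of 52188 peaks of the list from cells given chenodeoxycholic acid (CDCA, a primary bile acid), or 117 of 115281 peaks in all. The rule takes the genes by name and uses no peak values, although earlier results of these data were known when they were chosen.

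The cells were GES-1, a line of human gastric epithelial cells. The control cells were untreated, and the treated cells received CDCA at 100 µM for 48 h. The series held 4 samples, an input and an m6A immunoprecipitation library from each condition, and the peak lists used here came from the 2 immunoprecipitation libraries. Each condition had 1 library, which allows no test of a difference between conditions, and all intervals are exact 95% intervals of counting error. Peak lists give no expression levels, so markers of the cell line could not be examined.

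TGF-beta ligands bind TGFBR2, which recruits and activates the kinase TGFBR1. The active receptor phosphorylates SMAD3, which enters the nucleus and regulates target genes, while SMAD7 acts at the receptor to shut the signal off and SKI and SKIL repress genes bound by SMAD proteins. In epithelial cells the pathway is known for inducing SNAI2 and ZEB1, repressors of E-cadherin that drive EMT. m6A is placed on messenger RNA by a methyltransferase complex, most densely near stop codons and in long internal exons, and is bound by reader proteins that act on splicing, translation and decay.

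Strength is given by 3 of the authors' peak values. Fold enrichment was taken as the summit height plus 1 over the local background plus 1, with no listed value below 6. The added 1 lowers the fold most where the background is low. The third value, −log10 q, is the peak's significance within its list. Heights rose in equal steps, 0.862 for control and 0.640 for CDCA, and 1 step was taken as 1 fragment. Fragment numbers are therefore on a different scale in each list and show the precision of a peak, not its relative height. The local background was recovered from height and fold enrichment and is expressed as a multiple of the lowest background of the same list. The lists were made separately, so values from both are set side by side and show no change in methylation. In bulk RNA, a change in methylation and a change in the amount of a transcript cannot be told apart from peak lists, nor can fewer cells with a transcript and less of it per cell. The lists give no strand, and exons were not located in the hg19 spans.

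Control cells had more listed peaks than CDCA-treated cells over these genes, and with all members counted the gap was not larger than counting error. The CDCA number was 72.1% of the control number (48.9 to 106), against 82.7% (81.8 to 83.7) over all peaks. SMAD3, TGFBR1, TGFBR2, TGFB2, SKIL and ZEB1 had more peaks in the control list, SNAI2 had more in the CDCA list, and SMAD7 and SKI had equal numbers. Among peaks with a −log10 q of 20 or more that equality was lost, with 2 control and 1 CDCA peaks for SMAD7 and 4 and 2 for SKI. Over all peaks, 31694 of 63093 in control and 34535 of 52188 in CDCA lay under 20, so this cut removes more of the CDCA list. Nothing particular to SMAD7 or SKI is read from it. TGFBR1 showed the widest gap, with 7 control peaks and 0 CDCA peaks. Without TGFBR1, which was singled out after its values were seen, the CDCA number was 80.3% (54.0 to 119) of the control number. ZEB1 supplied 28 of the control and 25 of the CDCA peaks, and without it the figure was 60.0% (34.6 to 102).

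**Figure D1:**
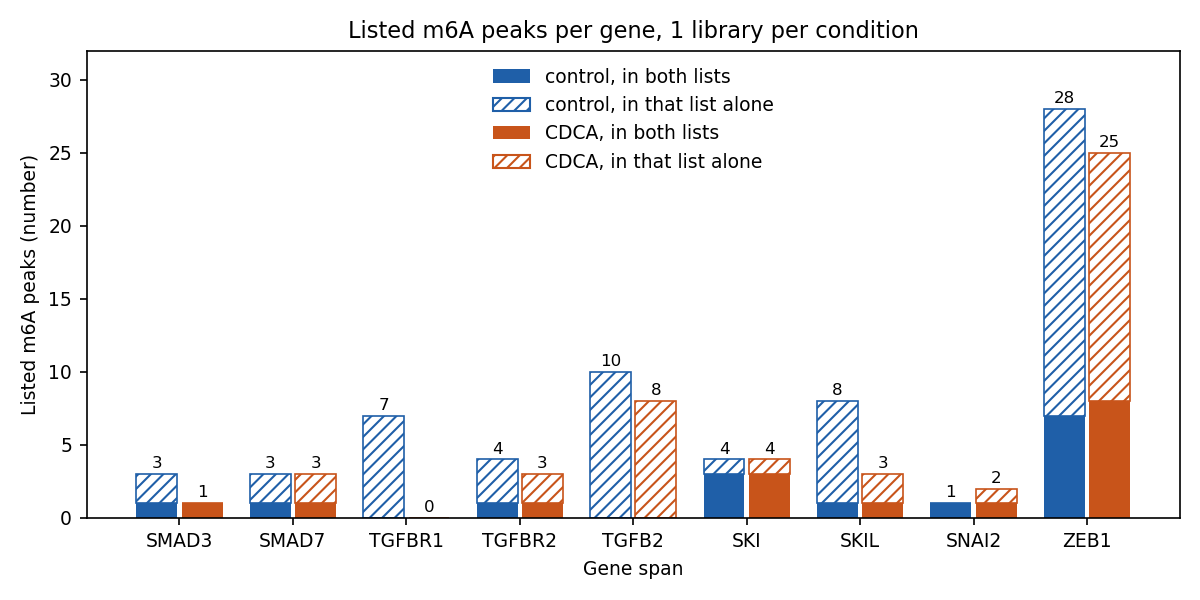
Number of listed m6A peaks per gene span in the control and CDCA libraries. Filled bars are peaks that overlap a peak of the other list, hatched bars are peaks listed in that library alone, and the number above each bar is the total. TGFBR1 has 7 control peaks and 0 CDCA peaks, and TGFB2 has 10 and 8, of which none overlap. Over all peaks, 18.2% in control and 22.2% in CDCA overlap a peak of the other list.

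Sites common to both libraries were found in 7 of the 9 genes, and TGFB2 and TGFBR1 had none. A partner, meaning a peak of the other list with 1 bp or more in common, was found for 15 of 68 control members (22.1%, 12.9 to 33.8), against 18.2% of all control peaks. It was found for 16 of 49 CDCA members (32.7%, 19.9 to 47.5), against 22.2% of all CDCA peaks. Both intervals hold the value over all peaks. The overlaps joined into 15 sites, 14 of them with 1 peak from each list.

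Strong peaks, whose −log10 q reached 100, made up 10 of 68 control members (14.7%, 7.28 to 25.4) and 6 of 49 CDCA members (12.2%, 4.63 to 24.8), against 7.77% and 7.9% over all peaks. They lay in SMAD3, TGFBR2, SKI, SKIL, SNAI2 and ZEB1. Of the strong peaks, 9 of 10 in control and 6 of 6 in CDCA had a partner, against 87.6% and 91.2% over all strong peaks. At a −log10 q of 50 to 100 the members with a partner were 2 of 5 in control and 4 of 7 in CDCA, against 42.1% and 66.1%. At 20 to 50 they were 1 of 23 and 2 of 8, against 13.6% and 26.7%. Below 20 they were 3 of 30 and 4 of 28, against 6.97% and 8.93%. Each value over all peaks lay inside the interval of the members, and nothing particular to these genes is read from the sharing.

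**Figure D2:**
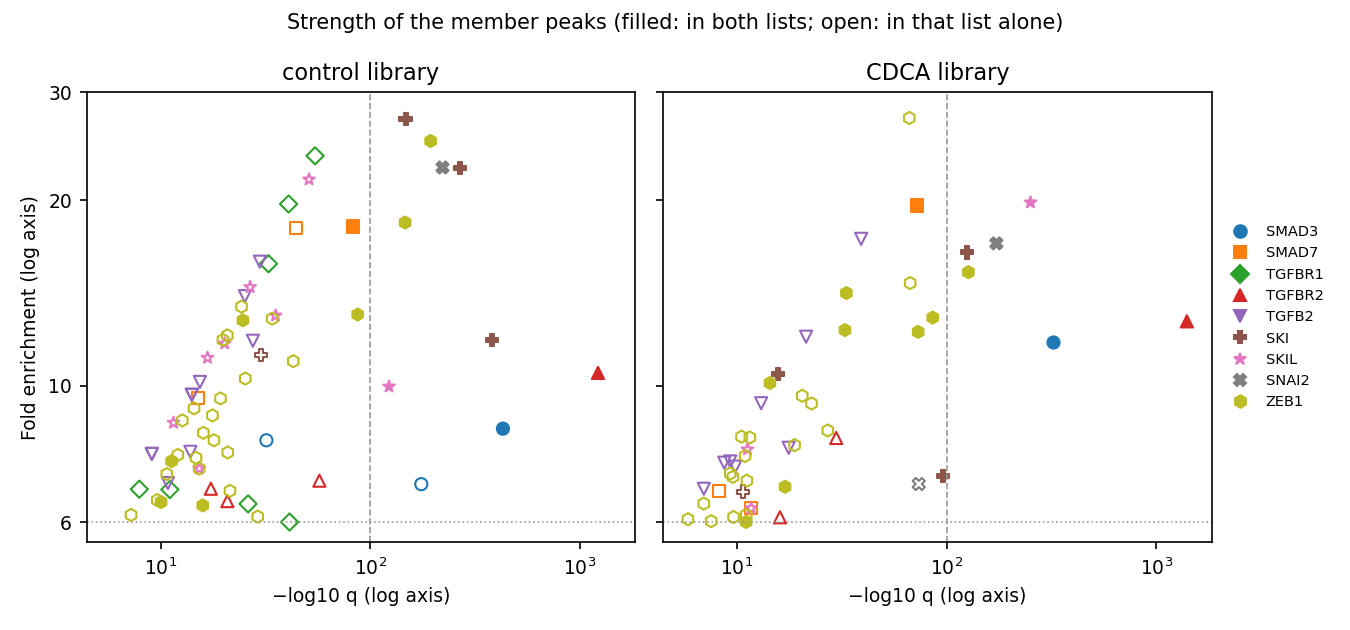
Fold enrichment against −log10 q of every member peak, both on log axes, for the control library (left) and the CDCA library (right), with the gene given by the symbol. Filled symbols overlap a peak of the other list. The dashed line marks a −log10 q of 100, beyond which 9 of 10 control and 6 of 6 CDCA peaks are filled, and the dotted line marks the lowest listed fold enrichment of 6.

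Summits in the first or last 10% of a span were counted for strong, shared and unshared peaks. Among strong peaks they were 7 of 10 in control (70.0%, 34.8 to 93.3) and 4 of 6 in CDCA (66.7%, 22.3 to 95.7). Among peaks with a partner in the other list these were 8 of 15 (53.3%, 26.6 to 78.7) and 9 of 16 (56.2%, 29.9 to 80.2). Among peaks listed in 1 library alone they were 9 of 53 (17.0%, 8.07 to 29.8) and 6 of 33 (18.2%, 6.98 to 35.5). The intervals are wide, those of the shared and unshared peaks overlap in both lists, and the share over all peaks was not computed, since no other gene spans were placed. The strong sites outside these ends were TGFBR2, an inner site of SKI and SNAI2, whose span of 4 kb leaves little room at its ends. Position within the span is not position within the mature RNA, since introns are included.

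**Figure D3:**
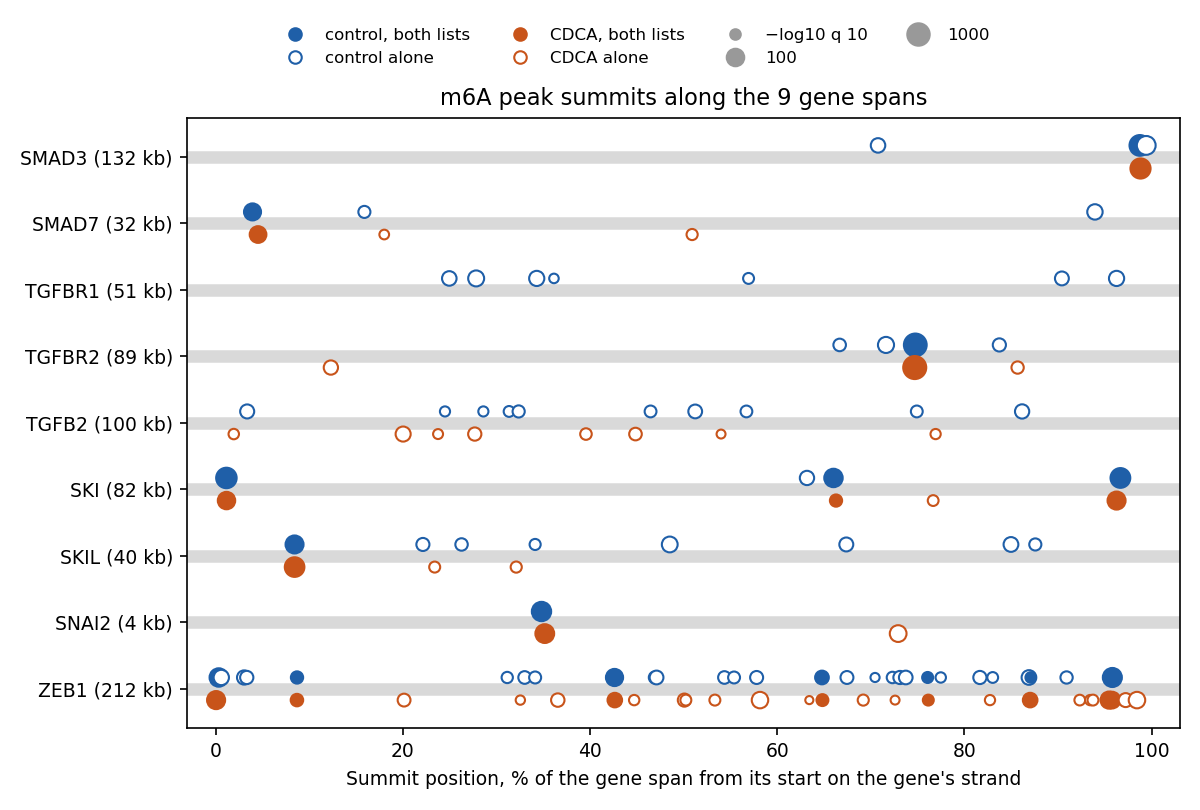
Summit positions along each gene span, in percent of the span from its start on the gene's strand, with control peaks above and CDCA peaks below the grey line. Symbol area grows with −log10 q, filled symbols overlap a peak of the other list, and open symbols are listed in 1 library alone. Large filled pairs sit near the start of SMAD7, SKI, SKIL and ZEB1 and near the end of SMAD3, SKI and ZEB1.

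Peaks listed in 1 library alone may have been called in the other. Each list numbers its peaks in order of position and leaves numbers out, so that a called but unlisted peak may have lain between the neighbours in the other list. Such a gap in the CDCA numbers stood beside 44 of the 53 control members without a partner (83.0%, 70.2 to 91.9), against 73.2% over all control peaks without one. A gap in the control numbers stood beside 14 of the 33 CDCA members without a partner (42.4%, 25.5 to 60.8), against 63.2%, which lies above that interval. Members of 1 gene often shared the same gap, so they are not independent. A skipped number gives no position between its neighbours.

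TGFB2, which encodes a secreted TGF-beta ligand (chromosome 1, 218.518 to 218.618 Mb, plus strand), carried scattered weak peaks that did not coincide between libraries. The control list held 10 peaks with a fold enrichment of 6.95 to 15.9 and a −log10 q of 9.08 to 29.8. The CDCA list held 8 peaks with a fold of 6.80 to 17.3 and a −log10 q of 6.95 to 39.1. The ranges of the libraries overlapped on both measures. The most significant control peak lay on chromosome 1 at 218604053 to 218604264, 86.2 kb from the start of the gene, with 32 fragments at the summit. The most significant CDCA peak lay at 218537930 to 218538156, 20 kb from the start, with 58 fragments. No control peak of TGFB2 overlapped a CDCA peak. A −log10 q under 20 was found for 7 of the 10 control and 6 of the 8 CDCA peaks. In that band 6.97% and 8.93% of all peaks had a partner. The others lay at 20 to 50, where 13.6% and 26.7% of all peaks had one, so few partners would be usual at this strength. The gaps between the nearest peaks of the lists ran from 521 to 9007 bp for the control peaks and from 521 to 6614 bp for the CDCA peaks. The local background stood at the lowest level of the list under 7 of the 10 control and 3 of the 8 CDCA peaks, and it was at most 2.51 and 4.02 times that level under the others. The RefSeq table for GRCh38.p14 also places the noncoding genes TGFB2-AS1 and TGFB2-OT1 over parts of TGFB2, and without strand their reads cannot be told apart from those of TGFB2.

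TGFBR2, the receptor that binds the ligand (chromosome 3, 30.647 to 30.736 Mb, plus strand), held the most significant and tallest site of the 9 genes in both libraries. Higher folds were reached by peaks of SMAD7, TGFB2, SKI, SKIL, SNAI2 and ZEB1 in both libraries, and of TGFBR1 in control. The control peak on chromosome 3 at 30713230 to 30714077 was 848 bp long with 2249 fragments at the summit, a fold enrichment of 10.5 (10.1 to 10.9) and a −log10 q of 1219, which ranked 284 in its list. The CDCA peak at 30713238 to 30714071 was 834 bp long with 3101 fragments, a fold of 12.7 (12.3 to 13.2) and a −log10 q of 1399, which ranked 192 in its list. The edges of the peaks differed by few bases, and the summits lay 56 bp apart, 66.5 kb from the start of the gene and 22.5 kb before its end. Intervals of fold enrichment here and below cover the counting error of summit fragments with the background held fixed. The local background under this site was also the highest of all member peaks, 230 times the lowest level of the control list and 208 times that of the CDCA list. In the RefSeq table for GRCh38.p14, the protein-coding gene LOC105377015 and the pseudogene KLHL25P1 overlap TGFBR2 by 569 and 375 bp, and whether peaks fall on them is unknown.

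The other peaks of TGFBR2 differed between the lists. Control cells had 3 further peaks on both sides of the main site, at 59.3, 63.7 and 74.5 kb from the start, with folds of 6.80, 7.01 and 6.49. The peak at 63.7 kb had the highest significance of these, with a −log10 q of 57.2. CDCA-treated cells had a peak of 496 bp at 11.0 kb from the start (fold 8.22, −log10 q 29.7), which was 47910 bp from any control peak. They also had a peak at 76.3 kb with a fold of 6.11. The control peaks and the CDCA peak at 76.3 kb were close to the lowest listed fold of 6, and all 5 of these peaks listed in 1 library alone had a skipped peak number beside them in the other list.

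TGFBR1, the kinase that phosphorylates SMAD3 (chromosome 9, 101.866 to 101.917 Mb, plus strand), had 7 peaks in control cells and 0 in CDCA-treated cells. A group of 4 control peaks lay at 12.7, 14.2, 17.5 and 18.4 kb from the start of the gene, each 200 to 207 bp long. The first 3 had folds of 15.8, 23.6 and 19.7, and the fourth had a fold of 6.79 on 13 fragments. The peak at 14.2 kb, on chromosome 9 at 101880133 to 101880335, had the highest −log10 q of the gene (54.6) and rested on 52 fragments. A further peak lay at 29.0 kb with a fold of 6.78. The remaining 2, at 46.1 and 49.1 kb, had folds of 6.43 and 6.004, and the latter, the peak nearest the end of the gene, had 113 fragments, the most of the gene.

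Between the nearest CDCA peaks on either side, 313.6 kb before TGFBR1 and 310.2 kb beyond it, the CDCA list skipped 8 numbers and listed no peak. The control list had no peak for 313.3 kb before the gene either, and its next peak beyond the gene was 54.8 kb away. Called peaks in or near TGFBR1 may therefore have been left out of the CDCA list. The 3 control peaks with folds of 15.8 to 23.6 stood well above the listing limit and on a background of at most 1.43 times the lowest level, while the 2 nearest the end of the gene stood near the limit on a background of 9.87 and 19.3 times that level. A CDCA value for the gene cannot be given from the list. The same RefSeq table has the pseudogene RNA5SP290 inside TGFBR1.

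SMAD3, the transducer activated by TGFBR1 (chromosome 15, 67.356 to 67.488 Mb, plus strand), carried its main site at the end of the gene in both libraries. The control peak at 67486193 to 67486850 had 907 fragments, a fold of 8.51 (7.97 to 9.09) and a −log10 q of 429. The CDCA peak at 67486204 to 67486555 had 742 fragments, a fold of 11.8 (10.9 to 12.6) and a −log10 q of 322. The CDCA list thus had the higher fold, with separate intervals, at the lower height (475 against 782). The summits were 38 bp apart, 1.7 kb before the end of the gene in control. The peak was 658 bp long in control and 352 bp long in CDCA, with almost the same start. The background under it was 114 times the lowest level in control and 52.9 times in CDCA.

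A neighbouring SMAD3 peak was listed in control cells alone. It lay at 67487071 to 67487439, 0.8 kb before the end of the gene, with 432 fragments, a fold of 6.92 (6.28 to 7.60) and a −log10 q of 175. Among the member peaks listed in 1 library alone it had the highest significance and the most fragments. The nearest CDCA peak was 515 bp away, and 3 numbers were skipped beside it in the CDCA list. A weaker control peak at 93.4 kb (fold 8.15, −log10 q 31.97) also had no partner. The RefSeq table for GRCh38.p14 has the noncoding gene SMAD3-AS1 overlapping part of SMAD3, and strand is unknown here too.

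SMAD7, an inhibitory SMAD that is itself induced by TGF-beta (chromosome 18, 46.446 to 46.478 Mb, minus strand), had 3 peaks in each library, of which 1 was common. The common site lay 1.3 kb from the start of the gene, on chromosome 18 at 46476243 to 46476933 in control and 46476374 to 46476983 in CDCA. It had 104 and 115 fragments, and the folds of 18.1 (14.9 to 21.9) and 19.6 (16.2 to 23.5) had overlapping intervals. Control cells had a peak near the end of the gene at 30.1 kb, with a fold of 18.0 and a −log10 q of 44.1. Its nearest CDCA peak was 13489 bp away, with 6 skipped numbers between its neighbours. The weaker peaks, 1 in control at 5.1 kb and 2 in CDCA at 5.8 and 16.3 kb, had a −log10 q of at most 15.0.

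SKI, a co-repressor that binds SMAD3 at target genes (chromosome 1, 2.16 to 2.242 Mb, plus strand), had 3 common sites, and each had the lower fold enrichment in the CDCA list. At the start of the gene, at 2160727 to 2161124 in control and 2160742 to 2161147 in CDCA, the summits were 9 bp apart. The control peak had 645 fragments and a fold of 11.9 (11.0 to 12.8), and the CDCA peak 311 fragments and a fold of 7.14 (6.37 to 7.98). The −log10 q of this site was 379 and 96.0.

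The inner site of SKI, at 54.1 kb, had 156 fragments and a fold of 27.1 (23.1 to 31.7) in control, the highest fold of any control member peak, at 2213957 to 2214479. In CDCA it had 27 fragments and a fold of 10.5 (7.09 to 15.0), with a peak of 238 bp against 523 bp in control. The site towards the end, 79.3 kb from the start, at 2238700 to 2239499 in control and 2238738 to 2239644 in CDCA, had 323 and 230 fragments and folds of 22.5 (20.2 to 25.1) and 16.5 (14.4 to 18.7). The counting intervals of the libraries were separate at all 3 SKI sites. The inner site had a background of 0.746 in CDCA and 4.0 in control. The 1 added in the fold weighs more on the lower background. Whether the intervals at this site would be separate without that 1 was not tested. The local background was also the lower in CDCA at all 3 sites, 36.2 against 57.6 times the lowest level at the start, the lowest level itself against 5.01 times at the inner site and 10.7 against 14.3 towards the end, and the part of the background in these folds was not tested. Each list had 1 further peak without a partner, at 51.8 kb in control (fold 11.2) and 62.9 kb in CDCA (fold 6.73).

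SKIL, a relative of SKI that is degraded upon TGF-beta signalling (chromosome 3, 170.075 to 170.115 Mb, plus strand), had a common site with the higher fold in the CDCA list. It lay 3.4 kb from the start of the gene, at 170078182 to 170079178 in control and 170078081 to 170079200 in CDCA, with summits 2 bp apart. The control peak had 230 fragments, a fold of 9.97 (8.73 to 11.3) and a −log10 q of 123. The CDCA peak had 433 fragments, a fold of 19.9 (18.0 to 21.8) and a −log10 q of 251. The CDCA peak thus had the higher fold, with separate intervals, at the greater height (277 against 198). The background was 23.8 times the lowest level in control and 17.4 times in CDCA.

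Beyond that site SKIL had 7 control and 2 CDCA peaks, none of them common. The strongest was a control peak at 19.4 kb, at 170094333 to 170094557, with a fold of 21.6, a −log10 q of 51.0 and 50 fragments, and 3 numbers were skipped beside it in the CDCA list. The control peak at 8.9 kb (26 fragments) and the CDCA peak at 9.4 kb (28 fragments) were separated by 14 bp, so this pair missed the overlap rule narrowly. The 4 control peaks from 19.4 kb onwards were 6378 to 21962 bp from any CDCA peak.

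SNAI2, also called Slug, a zinc-finger repressor of E-cadherin (chromosome 8, 49.83 to 49.834 Mb, minus strand), had a common site inside its span of 4 kb. It lay 1.4 kb from the start of the gene, at 49832212 to 49832770 in control and 49832179 to 49832769 in CDCA, with summits 15 bp apart. The control peak had 262 fragments and a fold of 22.7 (20.04 to 25.6), and the CDCA peak 318 fragments and a fold of 17.0 (15.2 to 19.0). The −log10 q was 220.0 in control and 172.7 in CDCA. The control peak had the higher fold, with separate intervals, and in the authors' height it was also the taller, at 226 against 203.

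A second SNAI2 peak was listed in CDCA-treated cells alone, at 49830768 to 49831581, 1.1 kb before the end of the gene. It was 814 bp long with 243 fragments, a fold of 6.92 (6.08 to 7.84) and a −log10 q of 73.7, the highest among the CDCA member peaks without a partner. The control list skipped 1 number there, and the nearest listed control peak was 630 bp away. The background under this peak was 29.0 times the lowest level of the list, above the 14.8 under the common CDCA peak.

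ZEB1, a zinc-finger repressor at the centre of EMT (chromosome 10, 31.607 to 31.819 Mb, plus strand), spread 28 control and 25 CDCA peaks over 212 kb. Of these, 7 control and 8 CDCA peaks overlapped and formed 7 sites. Most were weak: 16 of 28 in control and 15 of 25 in CDCA had a −log10 q under 20. Both lists had the highest summits near the start and the end of the gene.

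**Figure D4:**
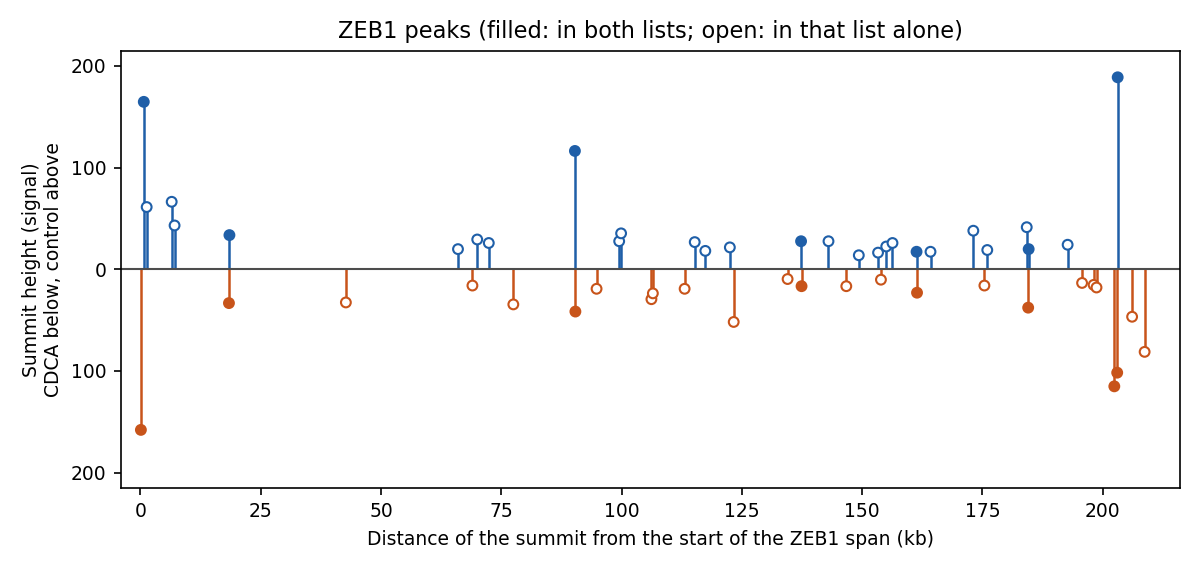
Summit height, the authors' signal at the summit, of every ZEB1 peak against its distance from the start of the gene span in kb, with the control library above and the CDCA library below the zero line. Filled symbols overlap a peak of the other list and open symbols are listed in that library alone. The tallest summits lie at the start and at about 203 kb in both libraries, and peaks at 206.1 and 208.7 kb appear in the CDCA list alone.

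The site at the start of ZEB1 spanned 31606946 to 31607898 in control and 31606683 to 31607549 in CDCA. The peaks had 191 and 247 fragments and folds of 18.4 (15.9 to 21.2) and 15.3 (13.5 to 17.3), whose intervals overlapped. Their summits were 606 bp apart, the CDCA summit being the nearer to the start of the span. The RefSeq table for GRCh38.p14 has the antisense noncoding gene ZEB1-AS1 overlapping ZEB1 by 2031 bp, and reads of the pair cannot be told apart without strand. A control peak at 1.3 kb (fold 11.0, −log10 q 42.9) and control peaks at 6.5 and 7.1 kb (folds 6.13 and 6.75) had no CDCA partner.

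The site towards the end of ZEB1 was 1 broad peak in control and a pair of peaks in CDCA. The control peak at 31809229 to 31810834 was 1606 bp long, the longest of all member peaks, with 219 fragments, a fold of 24.98 (21.8 to 28.5) and a −log10 q of 194. The CDCA peaks at 31809215 to 31809520 and 31809777 to 31810627 had 180 and 159 fragments, folds of 12.9 (11.1 to 14.9) and 12.2 (10.4 to 14.3) and a −log10 q of 85.8 and 73.2. They left a stretch of the control peak between them and at its end uncovered. Further towards the end, CDCA-treated cells alone had peaks at 206.1 kb (fold 8.46, 73 fragments) and 208.7 kb (fold 14.7, 127 fragments, −log10 q 67.0), and 3 numbers were skipped beside them in the control list.

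Inside ZEB1, a common site at 90.3 kb had 135 fragments in control and 65 in CDCA, with folds of 13.05 (11.0 to 15.4) and 12.3 (9.56 to 15.6). The background under it was 10.02 times the lowest level in control and 3.30 times in CDCA, and the height was 116 and 41.6. Height and background were thus both lower in the CDCA list, while the folds had overlapping intervals. The site at 184.6 kb had 23 fragments and a fold of 6.47 (4.22 to 9.55) in control and 59 fragments and a fold of 14.1 (10.8 to 18.1) in CDCA. A stronger control peak, with a fold of 12.85 and 48 fragments, ended 46 bp short of that CDCA peak. The sites at 18.5, 137.3 and 161.3 kb had 20 to 39 fragments in control and 26 to 52 in CDCA, and their fold intervals overlapped.

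The highest fold of any CDCA member peak, 27.2 (21.7 to 33.7), belonged to a ZEB1 peak listed in CDCA-treated cells alone, at 31730120 to 31730777. It was 658 bp long and had 81 fragments and a −log10 q of 66.4. No number was skipped beside it in the control list, so the control list numbered no further peak between its neighbours. A control peak with a fold of 11.9 and 25 fragments lay 386 bp away, at 31729487 to 31729733. Among the 5 most significant member peaks without a partner in each list, this was the one peak with no skipped number.

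Set side by side, the 14 sites with 1 peak from each list showed no common direction. The fold enrichment was lower in CDCA at 8 and higher at 6, against 55.7% lower over all 10569 such pairs. At 8 of the 14 sites the counting intervals were separate. CDCA was lower at the 3 SKI sites and SNAI2 and higher at SMAD3, TGFBR2, SKIL and the ZEB1 site at 184.6 kb. The inner SKI site stood on the lowest background of the CDCA list, where the 1 added in the fold weighs most. The background multiple was lower in CDCA at 11 of the 14, against 52.7% over all pairs. No interval was computed for this share, and most of the 14 sites lay in ZEB1 and SKI, so they are not independent. Nothing particular to these genes is read from it. Separate counting intervals describe these 2 libraries and not the conditions, since the variation between replicate libraries is unknown.

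**Figure D5:**
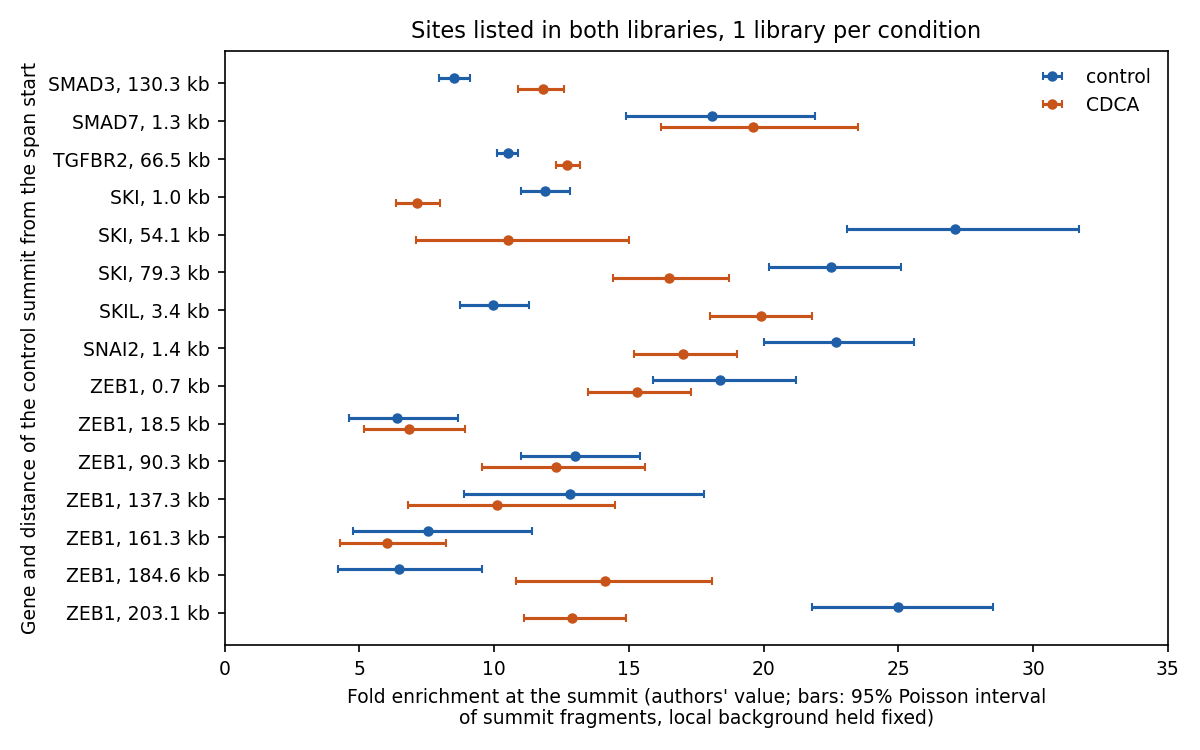
Fold enrichment in the control and CDCA libraries at the 15 sites listed in both, named by gene and distance of the control summit from the start of the span, with the stronger CDCA peak shown for ZEB1 at 203.1 kb. Bars are 95% Poisson intervals of the summit fragments with the local background held fixed. The CDCA points lie to the left of control at all 3 SKI sites and to the right at SMAD3, TGFBR2 and SKIL.

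Over all members, peaks with a partner were longer and taller than those without. The medians for control members with a partner were 559 bp, a fold of 12.8 and 191 fragments, against 228 bp, 8.78 and 31 for those without. For CDCA members they were 600 bp, 12.5 and 170 fragments, against 206 bp, 7.50 and 30. The same order held over all peaks, with a median length of 390 against 218 bp in control and 381 against 213 bp in CDCA. Fewer member peaks than all peaks stood on the lowest background, 12 of 68 (17.6%, 9.47 to 28.8) in control and 8 of 49 (16.3%, 7.32 to 29.7) in CDCA, against 32.8% and 36.7%. These shares depended on single genes. In control, ZEB1 had 28 peaks and 0 on the lowest background, while TGFB2 supplied 7 of the 12. In CDCA, ZEB1 supplied 4 of the 8 and TGFB2 3. Peaks of 1 gene are not independent, so the intervals are too narrow and no trait of the members is read from these shares. Of the member peaks without a partner, 14 of 53 in control and 10 of 33 in CDCA lay within 1000 bp of a peak of the other list. The same share over all peaks without a partner was not computed, so nothing particular to these genes is read from it.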

How the data were processed

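GES-1 cells without treatment and with CDCA were profiled by m6A immunoprecipitation and sequencing, with 1 library per condition. MACS2 2.1.0, TopHat2 2.0.13 and the build hg19 are named in the submitters' processing notes without a role. Which thresholds were applied is not given in the sources used here. Per the file headers, the deposited tables give each peak's position, its pileup (a signal, the height at the summit), fold enrichment (a ratio), and −log10 of its p-value and q-value, in 1 list per library and not pooled.

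Member peaks were taken by summit from spans rounded to 1 kb, and the span lengths were compared with the RefSeq table for GRCh38.p14 (100 to 104% of its lengths, on the same chromosomes). That table gave names of overlapping genes only. Other genes of the pathway and sequences under the peaks were not analysed here. Background was (height + 1) / fold − 1, and the lowest level was read with a tolerance of 1%. Heights were called whole multiples within 0.05 steps, widened for tall summits. Shares carry Clopper-Pearson and fragments Poisson 95% intervals, which cover counting error only, and depth in reads is unknown. The genes and the named peaks (the most significant peak of each gene and list, those whose −log10 q reached 100, and the 5 leading peaks without a partner in each list) were chosen with earlier results of these data known. Others were named after their values were seen. Alternatives covered thresholds, overlap, spans, list length and genes left out. The tools were scipy 1.17.1, pandas 2.3.3, numpy 2.4.6 and matplotlib 3.10.9 under Python 3.11.15, and the overlap steps were tested on simulated lists.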

Additional observations from a re-analysis of the deposited data

How the results depend on the processing

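Of 46 values recomputed under an alternative, 34 stayed within their interval or, for counts, within 1.5 times the main number. These include the wider spans and any overlapping base, which changed no count, and the setting without TGFBR1, chosen after its values were seen. Every value under those settings was among the 34. At a −log10 q of at least 20 there were 38 control and 21 CDCA member peaks, of which 31.6% (17.5 to 48.7) and 57.1% (34 to 78.2) had a partner. At 50 or more there were 15 and 13, with a partner for 73.3% and 76.9%. A fold of at least 10 left 30 and 17, with a partner for 33.3% (17.3 to 52.8) and 76.5% (50.1 to 93.2). Shares over all peaks at these settings were not computed, so nothing particular to these genes is read from the fold cut. Over all peaks the share with a partner also rose with −log10 q. It went from 6.97% under 20 to 87.6% at 100 or more in control, and from 8.93% to 91.2% in CDCA. The rise among the members is therefore not read as particular to them. Without ZEB1, the gene with the most peaks, 40 control and 24 CDCA peaks remained. Of 18 counts per gene and list, 10 stayed within 1.5 times when a −log10 q of 20 was required. The CDCA number as a percentage of control ran from 55.3% to 86.7% over these settings. At a −log10 q of at least 20 it was 55.3% (30.8 to 96.6), the one setting whose interval lay wholly below equal numbers. The ratio over all peaks at that cut was not computed. Under 20 lay 31694 of 63093 control and 34535 of 52188 CDCA peaks, so the cut lowers that ratio too. Widening the spans by 2 kb or taking any overlapping base changed no count. Ranking by fold or by height named the same leading peak in 14 of 17 cases each. No paired analysis was possible because each condition had 1 library. The weakest member peaks rested on 13 control and 15 CDCA fragments, where the fold is known only within a wide counting interval.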
